A study of Mus musculus with 12 samples.

Results

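This account describes what changed between 10.5 and 11.5 days post coitum (dpc) in sorted somatic cells of the gonad of XY mouse embryos. The members are the 6 XY arrays of a series of 12, chosen by sex and age in their titles, with 3 arrays at 10.5 dpc and 3 at 11.5 dpc. The 6 XX arrays of the same 2 ages, 3 at each, share the estimate of spread and are otherwise used only where the XY change is set against the XX change. All 4 groups carried an enhanced green fluorescent protein driven by the promoter of SF1 (Nr5a1), and green cells were collected by fluorescence-activated sorting, so each sample holds whatever cells that promoter marked at that age. The XY 10.5 dpc and XY 11.5 dpc groups differ by age alone in the labels, which name no treatment, strain or number of embryos. The RNA was amplified in 2 rounds and read on 1 Affymetrix mouse array per sample. The labels do not say whether the ages were sorted, amplified or hybridised together, so age and such a batch cannot be told apart. The labels do not tell whether the arrays of an age stand for different litters, embryos or only repeat preparations, so the p-values rest on array-to-array spread that could be technical alone.

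The gonad starts as a ridge of SF1-positive cells under the coelomic epithelium that has the same form in both sexes. In XY embryos a short wave of Sry in these cells switches on Sox9, and Sox9 with Fgf9 turns supporting cells into Sertoli cells, which send Dhh and Pdgfa signals to the surrounding interstitium and vessels. In XX embryos Wnt4, Rspo1 and Foxl2 direct the same supporting cells towards granulosa cells. The adrenal cortex comes from a neighbouring SF1-positive primordium, so a sort on this promoter can hold adrenal precursors as well.

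Values are intensities of probe sets on a linear scale, and changes are 11.5 minus 10.5 dpc on the log2(value + 1) scale with the standard error (SE) of the contrast, n = 3 arrays per age. A gene is said to rise or fall where limma's adjusted p was under 0.05. Each gene is read from 1 probe set, and intensities of different probe sets are not comparable as levels. Sizes given are those of that probe set. Where no count of probe sets is given, the others of the gene may not have shared the call. Across probe sets, r lay between 0.9981 and 0.9988 for arrays of 1 age and between 0.9784 and 0.9794 for arrays of different ages, so the ages stood apart on every array. Within an age the SD of probe sets had a median of 0.0606 at 10.5 dpc and 0.0557 at 11.5 dpc on the log2 scale, so small shifts passed the test. The lower quartile of each array's intensities lay between 8.24 and 8.96, and values under 10 are called near the lowest intensities here. The Y-linked Uty lay at 418, 542 and 530.5 at 10.5 dpc and 489, 411 and 482 at 11.5 dpc, against a mean of 11.2 and 12.4 in the XX arrays of the 2 ages, so all 6 XY arrays read this Y-linked gene. The 3′ to 5′ ratio of the actin control probe sets, a measure of how complete the amplified RNA was, went from 9.90 ± 0.022 (SD, n = 3) at 10.5 dpc to 7.59 ± 0.16 at 11.5 dpc, and that of Gapdh from 4.65 ± 0.11 to 4.19 ± 0.006. The ratio moved with age in every comparison that follows, and its part in the results was not tested.

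Of 18193 genes, 9751 (53.6%) changed over the day, 4318 (23.7%) rising and 5433 (29.9%) falling. Counted in probe sets, 21040 of 45037 (46.7%) changed. With each array centred on its median the split moved from 44.3% of changed genes rising to 31.4%, with 4049 rising and 8847 falling, and the share of rises therefore depends on the scaling. Changes of at least 2-fold were fewer and nearer to balance, with 1082 genes rising (5.95%) and 943 falling (5.18%). Large changes were mostly rises: 269 genes rose at least 4-fold against 80 that fell that far, and 27 rose at least 16-fold against 2. The 3 arrays of 1 age all lay above the 3 of the other for 74.3% of genes, 25.6% with 11.5 dpc above and 48.7% with 11.5 dpc below, so a lack of overlap is common here and marks no gene out by itself. In a bulk sample, fewer cells of a type and less RNA per cell cannot be told apart. Every list count below stands beside the 23.7% of all genes that rose and the 29.9% that fell. A list near those shares is not set apart by its count. The lists were chosen with earlier results of these data known, so their counts, medians and ranks are descriptions and not tests.

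The 10 largest rises held genes of Sertoli cells, of the matrix and of transcriptional control. Alpha-fetoprotein (Afp, 1416645_a_at), a plasma protein of fetal liver and yolk sac, lay at 6.57, 7.01 and 8.1 at 10.5 dpc and 2896, 2629 and 2721 at 11.5 dpc. It left the lowest intensities on all 3 arrays, a rise of 8.39 ± 0.23 (limma adjusted p = 1.4e-09), and 4 of its 5 probe sets rose. Nfix (1436363_a_at), a transcription factor of the nuclear factor I family, lay at 4.52, 4.36 and 5.51 at 10.5 dpc and 668, 728 and 697 at 11.5 dpc and rose by 6.92 ± 0.092 (adjusted p = 2.4e-11). Its 3 arrays at 10.5 dpc were all near the lowest intensities. Tesc, which encodes the calcium-binding protein tescalcin of early testis, rose by 6.84 ± 0.16 with arrays of 20.002, 31.3 and 20.2 at 10.5 dpc and 2554, 3162 and 2674 at 11.5 dpc. The matrix proteoglycan gene Ogn (1419663_at) rose by 6.15 ± 0.10 with arrays of 6.21, 5.94 and 6.73 at 10.5 dpc and 555, 463 and 532 at 11.5 dpc. Mapk13, a p38 stress kinase, rose by 6.004 ± 0.30 with arrays of 39.5, 17.6 and 52.6 at 10.5 dpc and 2235, 2039.7 and 2337 at 11.5 dpc, and the spread at 10.5 dpc was wider than at 11.5 dpc. The orphan nuclear receptor gene Nr4a3 rose by 5.97 ± 0.17 (14.2 to 941 in mean intensity) and Adamts16, a secreted metalloprotease, by 5.55 ± 0.18 (20.6 to 989). Adamts16 was called rising in 1 of its 2 probe sets, with a mean over them of 2.82. Col9a3, Cst9 and Dhh, the other members of these 10, belong to the testis list and are described with it.

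**Figure D1:**
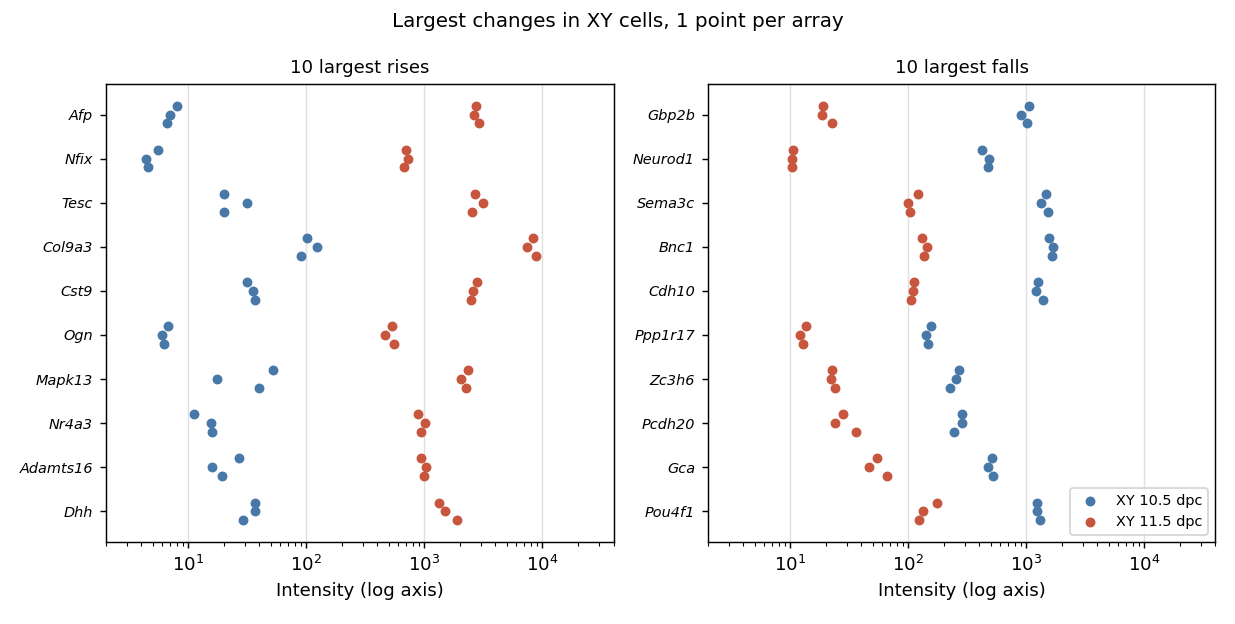
Intensity on a log axis of the 10 genes with the largest rises (left) and the 10 with the largest falls (right) in XY cells, with 1 point per array, blue for 10.5 dpc and red for 11.5 dpc. The genes were picked among those whose ages do not overlap and whose brighter age reached a mean of 100, so the lack of overlap was set by the choice. The 10.5 dpc arrays of Mapk13 spread from 17.6 to 52.6. Afp goes from 6.57 to 8.1 at 10.5 dpc to 2629 to 2896 at 11.5 dpc.

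The 10 largest falls were smaller and held neural genes, a guanylate-binding protein and a factor of the coelomic lining. Gbp2b (1420549_at), an interferon-inducible guanylate-binding protein, lay at 1003, 894 and 1056 at 10.5 dpc and 22.7, 18.5 and 18.8 at 11.5 dpc and fell by 5.55 ± 0.076 (limma adjusted p = 2.7e-11). Neurod1 (1426412_at), a transcription factor of neurons, lay at 470.2, 482 and 423 at 10.5 dpc and 10.4, 10.3 and 10.5 at 11.5 dpc and fell by 5.33 ± 0.059 (adjusted p = 7.4e-12). Both ended dim on all 3 arrays of 11.5 dpc. Pou4f1, a POU-domain factor of sensory neurons, fell by 3.12 ± 0.11 (1247 to 145), and Ppp1r17, a phosphatase inhibitor known from Purkinje cells, fell by 3.42 ± 0.12 (147 to 12.8). Sema3c, a secreted guidance protein, fell by 3.74 ± 0.092 with arrays of 1527, 1334 and 1479.8 at 10.5 dpc and 103, 99.9 and 120.4 at 11.5 dpc. Bnc1, a zinc finger factor of the mesothelium, fell by 3.57 ± 0.065 with arrays of 1654, 1687 and 1557 at 10.5 dpc and 137, 143 and 129.7 at 11.5 dpc. For both genes the 11.5 dpc arrays lay close together and far under the 10.5 dpc arrays. The cadherin and protocadherin genes Cdh10 and Pcdh20 fell by 3.55 ± 0.065 and 3.19 ± 0.17, the zinc finger gene Zc3h6 fell by 3.38 ± 0.19 and the calcium-binding protein gene Gca fell by 3.16 ± 0.11.

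Genes of the genital ridge itself fell more often than they rose. Of 18 measured genital ridge factors 5 rose and 10 fell, 2 and 5 of them at least 2-fold, with a median change of -0.33 against -0.05 over all genes. Emx2 (1456258_at), a homeobox gene needed for the ridge to form, lay at 4869, 5000.5 and 4875 at 10.5 dpc and 579.7, 619.6 and 641 at 11.5 dpc and fell by 3.00 ± 0.039 (limma adjusted p = 2.0e-11). Lhx9 (1419324_at), a LIM homeobox gene of the ridge and its coelomic lining, lay at 7628, 7573 and 7604 at 10.5 dpc and 2813, 2806 and 2687 at 11.5 dpc and fell by 1.46 ± 0.028 (adjusted p = 2.1e-10), and all 4 of its probe sets fell. In both genes every 11.5 dpc array lay well under every 10.5 dpc array. Zfpm2, the cofactor of Gata4, fell by 1.91 ± 0.089 (668 to 177). Kdm3a, a histone demethylase needed for Sry expression, fell by 1.19 ± 0.042 (9414 to 4142), and the nuclear receptor gene Nr0b1 fell by 1.01 ± 0.078 (195 to 96.5). Smaller falls were those of Wt1 (0.68 ± 0.028), a zinc finger regulator of Sf1 and Sry, of the kinase gene Map3k4 (0.42 ± 0.051) and of the insulin receptor gene Insr (0.59 ± 0.067). Igf1r and Numb fell by 0.88 ± 0.06 and 0.24 ± 0.046 in the probe set used. Each had another probe set that rose, by 1.09 ± 0.076 and 0.90 ± 0.28.

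Against this, Osr1 and Gadd45g rose at least 2-fold. Osr1, a factor of intermediate mesoderm, lay at 218, 241 and 199.7 at 10.5 dpc and 739, 791 and 743 at 11.5 dpc and rose by 1.79 ± 0.085, and Gadd45g, a stress-response protein that acts upstream of Sry through Map3k4, lay at 2139, 1934 and 2193 at 10.5 dpc and 5499.6, 5693 and 6212 at 11.5 dpc and rose by 1.47 ± 0.059. Six4 rose by 0.83 ± 0.094 and Cited2 by 0.59 ± 0.043. Gata4 (449.9, 441 and 415 at 10.5 dpc and 447, 445 and 460.5 at 11.5 dpc) and the Polycomb gene Cbx2 (189, 193 and 218 at 10.5 dpc and 185, 189 and 212 at 11.5 dpc) overlapped between the ages, with changes of 0.05 ± 0.041 (adjusted p = 0.31) and -0.03 ± 0.075 (adjusted p = 0.73). Nr5a1 (1418315_at), the gene behind the sorting reporter, lay at 599, 635 and 641 at 10.5 dpc and 721, 769 and 753 at 11.5 dpc and rose by 0.26 ± 0.051 (adjusted p = 0.0017). The other probe set of the gene did not share that call, and the mean of both was 0.06 (adjusted p = 0.38). The markers of the labelled cell type were thus present on all 6 arrays.

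Testis genes formed the list with the highest median, among lists drawn up with earlier results of these data known. Of 25 measured genes of testis determination and Sertoli cells 18 rose and 1 fell, 13 of the rises at least 2-fold, with a median of 1.26. Cst9 (1449285_at), a protease inhibitor that fetal Sertoli cells make, lay at 36.9, 35.2 and 31.6 at 10.5 dpc and 2481, 2579.7 and 2808 at 11.5 dpc and rose by 6.21 ± 0.11 (limma adjusted p = 1.5e-10). Col9a3 (1460693_a_at), a cartilage-type collagen chain also made in the early testis, lay at 90.5, 123 and 101 at 10.5 dpc and 8833, 7389 and 8341 at 11.5 dpc and rose by 6.28 ± 0.11 (adjusted p = 1.4e-10). Both went from dim to bright on every array. Col9a3 was called rising in 2 of its 3 probe sets, with a mean over them of 3.93. Dhh (1434959_at), the hedgehog ligand that Sertoli cells send to Leydig precursors, lay at 29.3, 36.8 and 37.1 at 10.5 dpc and 1906, 1506 and 1332 at 11.5 dpc and rose by 5.47 ± 0.14 (adjusted p = 9.2e-10). The call was given by 1 of the 2 probe sets of Dhh, with a mean over them of 2.74. Fgf9 (1438718_at), the growth factor that maintains Sox9, lay at 123, 129.8 and 119 at 10.5 dpc and 1695, 1638 and 1602 at 11.5 dpc and rose by 3.72 ± 0.072 (adjusted p = 1.9e-10), in both of its probe sets. Sox9 (1424950_at) itself moved less: its arrays lay at 180.2, 198 and 136 at 10.5 dpc and 397, 438 and 388 at 11.5 dpc, a rise of 1.26 ± 0.12 (adjusted p = 1.1e-05) shared by all 3 of its probe sets. The Sox9 arrays of the 2 ages did not overlap.

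The other testis genes that rose at least 2-fold were signals, enzymes and secreted proteins. Aard, a testis gene of the alanine and arginine rich domain type, rose by 4.94 ± 0.14 with arrays of 143, 105 and 146 at 10.5 dpc and 4038, 3819 and 4210.3 at 11.5 dpc. Gdnf, the neurotrophic factor that later supports spermatogonial stem cells, rose by 4.84 ± 0.16 with arrays of 24.3, 27.3 and 27.4 at 10.5 dpc and 745, 822 and 779 at 11.5 dpc. Ptgds, the prostaglandin D synthase that acts beside Sox9, rose by 4.20 ± 0.15 with arrays of 74.2, 95.5 and 97.3 at 10.5 dpc and 1502, 1737 and 1708 at 11.5 dpc. All 3 lay well apart between the ages. Clu, a secreted chaperone of Sertoli cells, rose by 3.69 ± 0.16 (146 to 1872), the cerebellin gene Cbln4 by 3.33 ± 0.19 (46.4 to 473), the transcription factor gene Etv5 by 3.04 ± 0.079 (58.4 to 489) and Cyp26b1, which degrades retinoic acid, by 1.54 ± 0.048 (215 to 625). Vnn1, a pantetheinase of the early testis, rose by 0.93 ± 0.037 from an already high level (3316 to 6334), Dmrt1 by 0.48 ± 0.097 and the activin subunit gene Inhbb by 0.90 ± 0.059. The tight junction gene Cldn11 was the member that fell, by 0.72 ± 0.11 (97.6 to 58).

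Several genes known to define the testis gave no usable signal. The Sry probe set (1450578_at) lay at 6.76, 7.11 and 6.94 at 10.5 dpc and 6.29, 6.47 and 6.61 at 11.5 dpc, a change of -0.09 ± 0.093 (adjusted p = 0.43), and that of Amh, the hormone that removes the Müllerian duct, at 3.21, 3.24 and 3.27 at 10.5 dpc and 3.18, 3.17 and 3.2 at 11.5 dpc (adjusted p = 0.49). Sox8 lay at 7.2, 7.78 and 7.38 at 10.5 dpc and 7.58, 7.01 and 7.59 at 11.5 dpc (adjusted p = 0.94). These 3 read near the lowest intensities at both ages, which says nothing on whether the genes were expressed. The Amh receptor gene Amhr2 had signal, at 1351, 1300.3 and 1279 at 10.5 dpc and 1228, 1280.4 and 1279 at 11.5 dpc, and did not pass (-0.05 ± 0.038, adjusted p = 0.26). The letters AAGGTCA, the core of the SF1 binding motif, were sought on both strands of the 300 bases around each gene start (RefSeq, GRCm38.p6, 250 bases before and 50 after). They were in 0 of the 11 risen testis genes with such a window, against 4.61% of all genes tested that have a window and 4.72% of all windows. This says only that these letters are not in these windows.

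**Figure D2:**
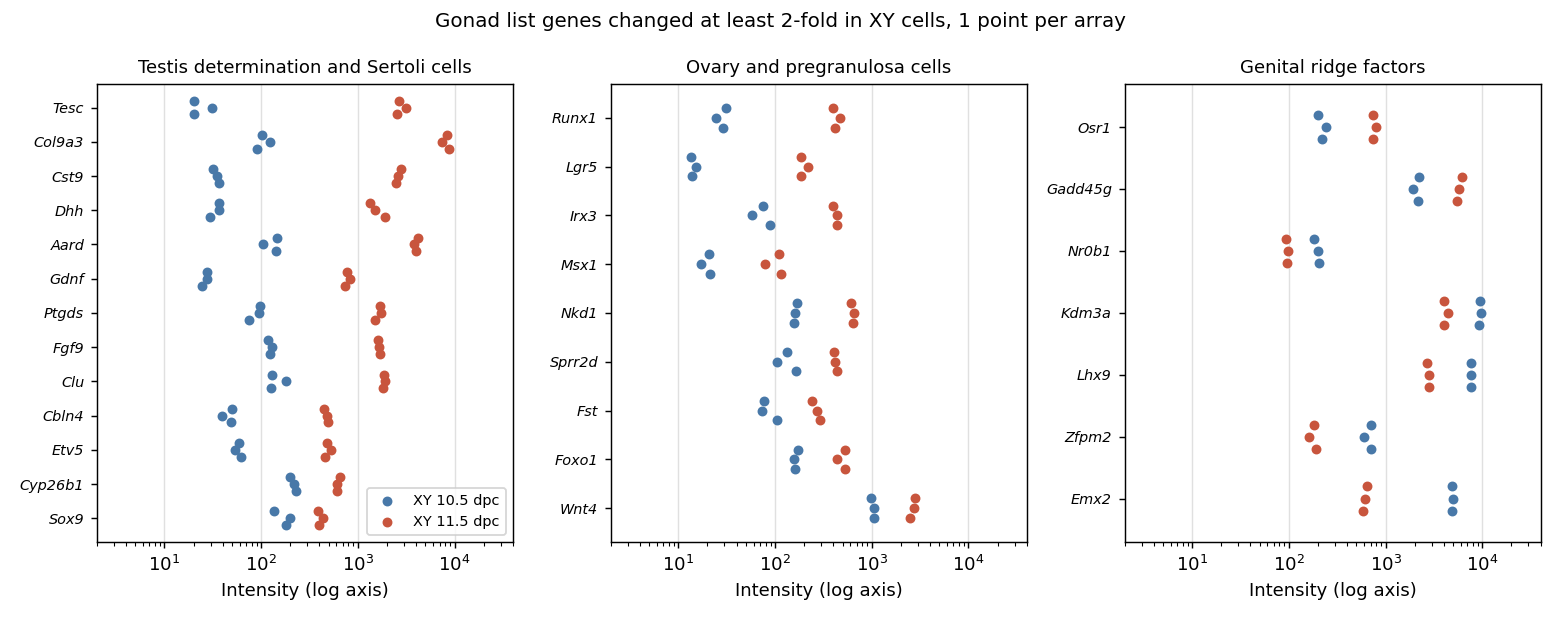
Intensity on a log axis, 1 point per array, of the genes of the testis, ovary and genital ridge lists that changed at least 2-fold in XY cells, sorted from the largest rise at the top to the largest fall at the bottom. Blue points are 10.5 dpc and red points 11.5 dpc. The 13 testis and 9 ovary genes shown all have their red points to the right, while 5 of the 7 ridge genes have them to the left.

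Genes of the ovary list rose in these XY cells too. Of 19 measured genes 13 rose and 5 fell, 9 of the rises at least 2-fold, with a median of 0.74. Wnt4 (1450782_at), the signal that promotes ovarian fate, lay at 1061, 1054 and 993 at 10.5 dpc and 2502, 2744 and 2771 at 11.5 dpc and rose by 1.37 ± 0.05 (limma adjusted p = 7.6e-09). Runx1 (1440878_at), a transcription factor of supporting cells, lay at 28.7, 24.7 and 31.3 at 10.5 dpc and 419, 471 and 400.2 at 11.5 dpc and rose by 3.88 ± 0.086 (adjusted p = 4.5e-10). Lgr5 (1450988_at), a receptor for R-spondins, lay at 14, 15.3 and 13.4 at 10.5 dpc and 185, 217 and 185 at 11.5 dpc and rose by 3.69 ± 0.13 (adjusted p = 5.9e-09). No array of 1 age overlapped the other for these 3 genes. The homeobox genes Irx3 and Msx1 rose by 2.51 ± 0.14 (74.5 to 423) and 2.29 ± 0.14 (19.7 to 101), the Wnt feedback gene Nkd1 by 1.96 ± 0.13 (162 to 637) and Sprr2d, a small proline-rich protein, by 1.66 ± 0.13 (134 to 419). Fst, the activin antagonist follistatin, rose by 1.65 ± 0.13 (85.3 to 266). Foxo1 rose by 1.60 ± 0.13, in 3 of 4 probe sets, and the fourth, which is near the lowest intensities, fell. Bmp2 rose by 0.74 ± 0.057 (1433 to 2396).

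The falls in this list included the Wnt activator Rspo1, which lay at 487, 450.3 and 448 at 10.5 dpc and 333, 306 and 355 at 11.5 dpc and fell by 0.48 ± 0.063 (adjusted p = 9.4e-05). Lef1, a transcription factor of the Wnt pathway, fell by 0.57 ± 0.07 (162 to 109). Foxl2 was also counted as falling, by 0.17 ± 0.052 (10.2 to 8.97) in 1 of its 2 probe sets. A call this close to the lowest intensities says nothing on the level of the gene. The Wnt target Axin2 rose by 0.28 ± 0.061 with arrays of 60.5, 62.5 and 56 at 10.5 dpc and 76.3, 72.5 and 69 at 11.5 dpc, which did not overlap. Wnt4 and Rspo1 thus went opposite ways in the same arrays.

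Steroid genes went both ways. Of 12 measured genes of steroidogenesis 5 rose and 2 fell, 2 and 1 of them at least 2-fold, with a median of 0.05. Cyp11a1 (1448804_at), the enzyme that starts steroid synthesis, lay at 121, 43 and 113 at 10.5 dpc and 345, 301 and 355 at 11.5 dpc and rose by 1.98 ± 0.33 (limma adjusted p = 5.4e-04), with the 10.5 dpc arrays spread widely. Scarb1, a receptor for lipoprotein cholesterol, rose by 1.21 ± 0.064 (396 to 919.5), and Star, which carries cholesterol into mitochondria, rose by 0.65 ± 0.041 with arrays of 521, 520.0 and 513 at 10.5 dpc and 769, 854 and 819 at 11.5 dpc. The ferredoxin gene Fdx1 overlapped between the ages (0.01 ± 0.036, adjusted p = 0.77), Nr5a2 rose by 1.00 ± 0.13 while another of its 4 probe sets fell, and Cyp17a1 lay near the lowest intensities at 6.23, 6.51 and 6.56 at 10.5 dpc and 5.79, 7.46 and 6.13 at 11.5 dpc. The receptor for adrenocorticotropic hormone, Mc2r, lay at 305, 215 and 278 at 10.5 dpc and 56.3, 80.4 and 85.9 at 11.5 dpc and fell by 1.84 ± 0.19 (adjusted p = 1.3e-05). Of 9 adrenal cortex genes, Mc2r and Nr0b1 among them, 2 rose and 4 fell, and the 2 that rose were Hsd3b1 (0.59 ± 0.13, 6.42 to 10.3) and Cited2. The summed intensity of that list lay between 3073 and 3163 on the 10.5 dpc arrays and between 4037 and 4211 on the 11.5 dpc arrays, but most of it was Cited2, which is also a ridge factor. Without Cited2, the brightest gene of the list, the sum went from between 503 and 595 to between 240.2 and 269.6. The part of these cells in the steroid values was not tested.

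Of 18 genes of cholesterol synthesis and uptake 9 rose and 2 fell, with small sizes and a median of 0.19. The number that fell was 1 without XY 10.5 dpc replicate 2, XY 11.5 dpc replicate 2 or XY 11.5 dpc replicate 3. Mvd, a decarboxylase of the pathway, rose by 1.20 ± 0.082 with arrays of 102, 111 and 101 at 10.5 dpc and 244, 243 and 242 at 11.5 dpc. Msmo1, a sterol oxidase, fell by 1.07 ± 0.056 with arrays of 1769, 1604 and 1672 at 10.5 dpc and 777, 813 and 804 at 11.5 dpc. The sterol sensor partner Insig1 rose by 0.54 ± 0.065, and Lss rose by 0.60 ± 0.052 in the probe set used while another fell, with a mean over its probe sets of 0.02 (adjusted p = 0.65). Among 12 interstitial and Leydig progenitor genes 6 rose and 4 fell. The platelet-derived growth factor receptor gene Pdgfrb rose by 2.16 ± 0.05 with arrays of 1321, 1359 and 1352 at 10.5 dpc and 6195, 5796 and 6003 at 11.5 dpc, and the adhesion gene Vcam1 by 2.18 ± 0.091 (62.3 to 287). Nr2f1, an orphan nuclear receptor, fell by 1.83 ± 0.11 with arrays of 14147, 12301 and 15925 at 10.5 dpc and 4358, 3863 and 3641 at 11.5 dpc. Pdgfra rose by 0.61 ± 0.046, with another of its 3 probe sets falling, and Dlk1 by 0.17 ± 0.03.

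Cell cycle genes fell as a group. Of 28 measured genes 3 rose and 23 fell, 10 of them at least 2-fold, and the median of -0.84 was the lowest of the 30 lists. Pcna (1417947_at), the sliding clamp of DNA replication, lay at 11438, 11294 and 11166 at 10.5 dpc and 2844, 3084 and 3007 at 11.5 dpc and fell by 1.92 ± 0.043 (limma adjusted p = 4.7e-10). Bub1, a kinase of the spindle checkpoint, lay at 1212, 1129.9 and 1142 at 10.5 dpc and 313, 353 and 351 at 11.5 dpc and fell by 1.78 ± 0.065 (adjusted p = 7.9e-09). Both left a wide gap between the ages. The replication licensing genes Mcm2 and Mcm6 fell by 1.00 ± 0.038 (2629 to 1311) and 0.95 ± 0.047 (5276 to 2725), and the proliferation marker Mki67 fell by 0.65 ± 0.038 (10885 to 6926). Mcm5 (1009.6, 884 and 962 at 10.5 dpc and 919.6, 1033 and 1024 at 11.5 dpc) overlapped between the ages and did not pass (0.06 ± 0.057, adjusted p = 0.39).

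The 3 cell cycle genes that rose were all cyclins of the G1 phase, which drive cells into replication. Ccnd2 (1416122_at) lay at 1342, 1282 and 1239.8 at 10.5 dpc and 5792, 6096 and 6296 at 11.5 dpc and rose by 2.23 ± 0.05 (adjusted p = 4.5e-10), in all 7 of its probe sets. Ccnd1 lay at 132, 155 and 156 at 10.5 dpc and 522, 487 and 478 at 11.5 dpc and rose by 1.75 ± 0.071 (adjusted p = 1.6e-08), in all 3 of its probe sets, and Ccne1 rose by 0.59 ± 0.045 (354 to 533). In all 3 the 11.5 dpc arrays lay above every 10.5 dpc array. Among 12 inhibitors of the cycle 4 rose and 2 fell. The antiproliferative gene Btg2 rose by 2.11 ± 0.049 with arrays of 905, 951 and 899.5 at 10.5 dpc and 3875, 3946 and 4108 at 11.5 dpc, and the kinase inhibitor genes Cdkn1c and Cdkn1a by 0.86 ± 0.043 (3121 to 5669) and 0.79 ± 0.049 (183 to 318). Ccng2 and Gadd45a fell by 0.97 ± 0.045 and 0.95 ± 0.057.

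E2F factors switch on replication genes through a short element near their starts, so the windows of the 19 fallen cell cycle genes that have one in the RefSeq table (GRCm38.p6) were searched for the letters TTTGGCGC or TTTCCCGC on both strands. They were in 4 of the 19, in Mcm6, Cdc6, Mcm7 and Mcm3, against 2.77% of all genes tested that have a window and 1.56% of all windows. The share was 21.1% of the fallen genes and 22.7% of all 22 measured cell cycle genes with a window. Since 19 of those 22 are the fallen genes, these shares cannot show whether the letters mark out the fallen ones. A match is a description of the letters and not a bound site. The stretches of 100 bases around the match are shown for the 3 genes whose match lies before the start. The match is in capitals as it reads on the gene's own strand. GCGGGAAA is the reverse complement of the second motif.
Mcm6, chr1:128359762-128359861, minus strand: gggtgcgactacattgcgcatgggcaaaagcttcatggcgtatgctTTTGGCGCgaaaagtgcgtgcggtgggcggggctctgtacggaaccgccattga
Cdc6, chr11:98907967-98908066, plus strand: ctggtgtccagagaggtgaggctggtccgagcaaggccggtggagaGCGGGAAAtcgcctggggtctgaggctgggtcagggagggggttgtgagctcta
Mcm7, chr5:138171995-138172094, minus strand: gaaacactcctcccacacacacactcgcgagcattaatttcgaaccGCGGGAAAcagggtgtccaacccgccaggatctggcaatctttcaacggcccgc
Of the 4 genes, Mcm6 fell most, and Cdc6, which loads the replicative helicase, lay at 679, 745 and 794 at 10.5 dpc and 489.9, 522 and 508 at 11.5 dpc and fell by 0.54 ± 0.066 (limma adjusted p = 5.4e-05). Mcm7 lay at 14573, 14704 and 14066 at 10.5 dpc and 11670.0, 13218 and 12725 at 11.5 dpc and fell by 0.21 ± 0.049 (adjusted p = 0.0054), in all 4 of its probe sets. Mcm3 fell by 0.10 ± 0.034 (adjusted p = 0.04), a call that was lost without any 1 of 5 of the 6 arrays (adjusted p from 0.073 to 0.11), all but XY 10.5 dpc replicate 1, although all 5 of its probe sets were called falling. The size of the fall thus differed widely among the genes that share these letters.

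Matrix genes rose as a group. Of 27 genes of the basement membrane and extracellular matrix 20 rose and 4 fell, 11 and 1 of them at least 2-fold, with a median of 0.86. Col18a1 (1418237_s_at), a basement membrane collagen, lay at 588, 598 and 549 at 10.5 dpc and 9227, 9974 and 9756 at 11.5 dpc and rose by 4.06 ± 0.051 (limma adjusted p = 1.6e-11). Col9a2, a partner chain of Col9a3, lay at 21.9, 23.8 and 22.5 at 10.5 dpc and 80.6, 99.5 and 97.3 at 11.5 dpc and rose by 1.97 ± 0.085 (adjusted p = 2.4e-08). Neither gene overlapped between the ages. The chains of the main basement membrane collagen, Col4a1 and Col4a2, rose by 0.86 ± 0.038 (11477 to 20897) and 1.05 ± 0.048 (1345 to 2782). The fibrillar collagen genes Col1a1 and Col1a2 rose by 1.62 ± 0.093 (726 to 2250.5) and 1.35 ± 0.074 (6151 to 15731), the proteoglycan gene Vcan by 1.33 ± 0.066 and Sparc by 0.78 ± 0.048. Lama1, a laminin chain of early basement membranes, went the other way: it lay at 2255, 2453 and 2343 at 10.5 dpc and 1236, 1303 and 1349 at 11.5 dpc and fell by 0.86 ± 0.054 (adjusted p = 3.5e-07).

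**Figure D3:**
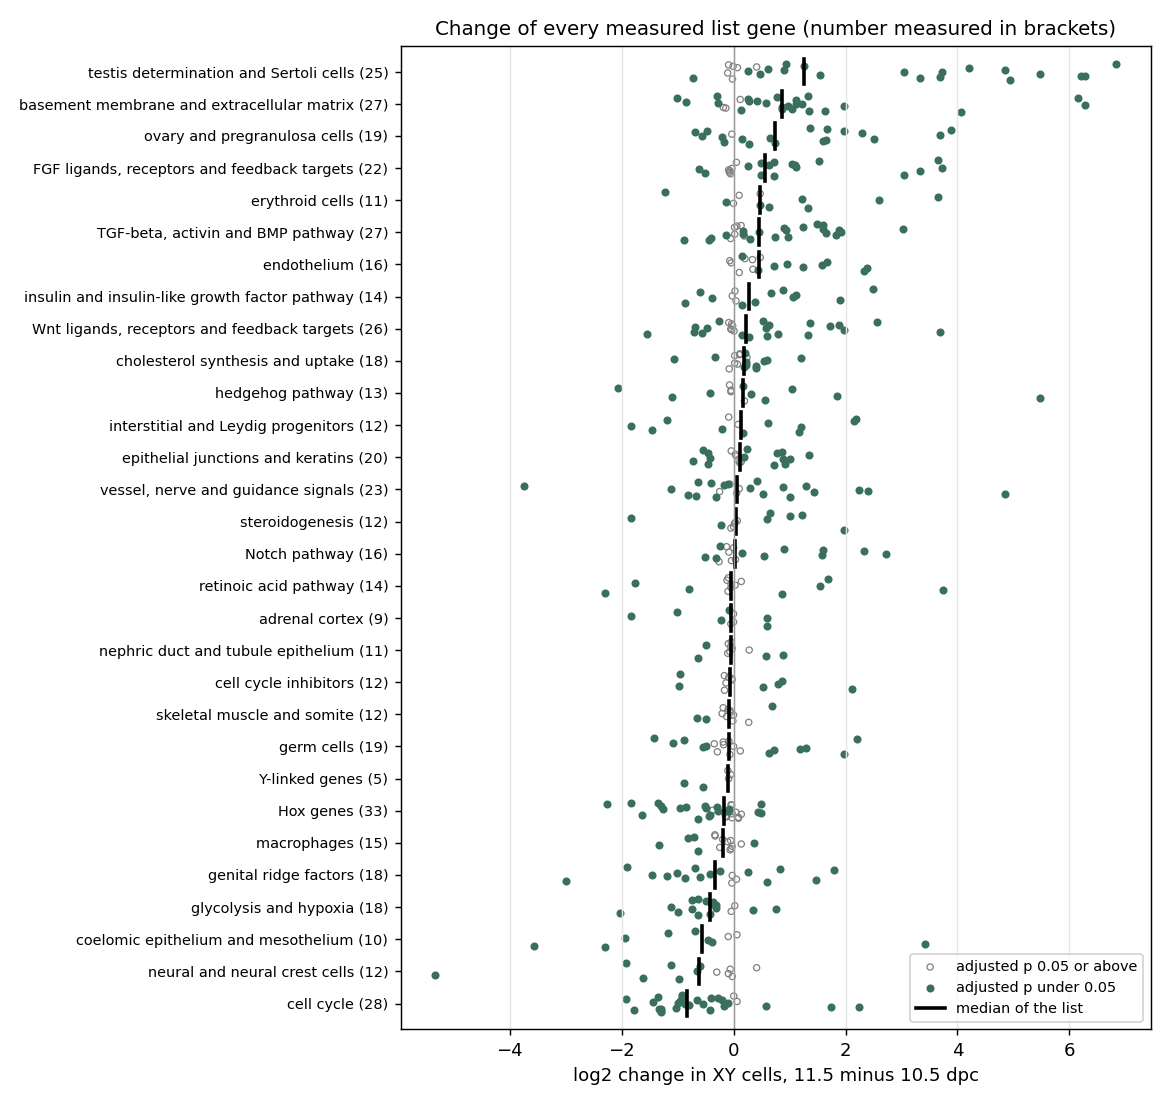
Change in XY cells of every measured gene of the 30 lists, 11.5 minus 10.5 dpc on the log2 scale, 1 point per gene and 1 row per list, with the median of each list as a black bar. Filled points have a limma adjusted p under 0.05 and open points do not. Medians run from 1.26 for the testis list to -0.84 for the cell cycle list, and most lists hold both rises and falls.

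In the fibroblast growth factor (FGF) list of ligands, receptors and feedback targets, 14 of 22 genes rose and 2 fell, 8 of the rises at least 2-fold, with a median of 0.56. The number that fell was 1 without XY 10.5 dpc replicate 2 or XY 11.5 dpc replicate 2. Besides Fgf9, the ligand gene Fgf18 lay at 28.9, 41.7 and 40.3 at 10.5 dpc and 371, 363 and 394 at 11.5 dpc and rose by 3.33 ± 0.14 (limma adjusted p = 2.0e-08), while Fgf10 fell by 0.52 ± 0.06 (78.6 to 54.5). Fgf7, another ligand gene, fell by 0.61 ± 0.19 (21.1 to 13.5), a call that was lost without XY 10.5 dpc replicate 1, XY 10.5 dpc replicate 2 or XY 11.5 dpc replicate 2 (adjusted p from 0.061 to 0.085). No other ligand gene of the list was called. The receptor genes Fgfr1 and Fgfr3 rose by 1.11 ± 0.051 and 1.10 ± 0.11. Each was called in 1 probe set, of 3 for Fgfr1 and of 2 for Fgfr3, with means over them of 0.49 and 0.52. The feedback inhibitor gene Spry4, which is induced by FGF, lay at 17.1, 23.7 and 22.9 at 10.5 dpc and 277, 296 and 254 at 11.5 dpc and rose by 3.65 ± 0.16 (adjusted p = 2.4e-08). Etv5, another induced gene, lay at 62.2, 54 and 59 at 10.5 dpc and 459, 530.2 and 476 at 11.5 dpc. In both the ages were far apart. Spry2, Il17rd and Dusp6, further inhibitors of the pathway, rose by 1.52 ± 0.053, 1.04 ± 0.069 and 0.73 ± 0.069.

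In the Wnt list 14 of 26 genes rose and 6 fell, with a median of 0.22. The ligand gene Wnt6 lay at 94.7, 131 and 118 at 10.5 dpc and 731, 689 and 613 at 11.5 dpc and rose by 2.56 ± 0.11 (limma adjusted p = 2.7e-08), and the secreted Wnt inhibitor gene Wif1 lay at 11.5, 12.7 and 12.8 at 10.5 dpc and 61.4, 36.3 and 50.6 at 11.5 dpc and rose by 1.89 ± 0.28 (adjusted p = 2.5e-04). Ages did not overlap in either gene, though Wif1 stayed dim. The receptor gene Fzd7 fell by 1.55 ± 0.073 (3228 to 1104), the R-spondin receptor gene Lgr4 fell by 0.70 ± 0.032 (6082 to 3740.0), in contrast to Lgr5, and the inhibitor gene Sfrp1 fell by 0.69 ± 0.033. Wnt5a (1029, 1179 and 1167 at 10.5 dpc and 1099, 1124 and 955 at 11.5 dpc) overlapped between the ages (adjusted p = 0.33).

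In the TGF-beta, activin and BMP list 17 of 27 genes rose and 4 fell, 9 of the rises at least 2-fold, with a median of 0.46. Inhba (1422053_at), the subunit of activin A, lay at 103, 91.2 and 86.5 at 10.5 dpc and 802, 772 and 735 at 11.5 dpc and rose by 3.03 ± 0.10 (limma adjusted p = 4.2e-09). The inhibin subunit gene Inha rose by 1.59 ± 0.044 (627 to 1894), and the ligand genes Bmp7, Bmp4 and Tgfb2 by 1.82 ± 0.11, 0.97 ± 0.056 and 1.60 ± 0.046. Bmp7 was called rising in 1 of its 3 probe sets, with a mean over them of 0.50. Grem1, a secreted BMP antagonist, lay at 69.6, 61.4 and 80.3 at 10.5 dpc and 349, 218 and 251 at 11.5 dpc and rose by 1.92 ± 0.16 (adjusted p = 3.1e-06). These ligands and this antagonist rose on the same arrays. Among genes that BMP induces, Id4 lay at 644, 661 and 703 at 10.5 dpc and 2487, 2400.0 and 2484 at 11.5 dpc and rose by 1.88 ± 0.045, and Id3, Id1 and the inhibitory Smad gene Smad6 rose by 0.93 ± 0.037, 0.46 ± 0.054 and 1.24 ± 0.053. The 4 that fell were the receptor genes Acvr1 (0.89 ± 0.048), Acvr2a (0.44 ± 0.043) and Bmpr1a (0.14 ± 0.038) and Bambi (0.40 ± 0.037, 3112 to 2351). Acvr1 was called falling in 1 of its 3 probe sets, with a mean over them of -0.33.

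In the hedgehog list 6 of 13 genes rose and 3 fell. Beside Dhh, the transcriptional target Gli1 lay at 25.3, 16.7 and 26.2 at 10.5 dpc and 70.5, 101 and 79.8 at 11.5 dpc and rose by 1.85 ± 0.21 (limma adjusted p = 2.9e-05). Ptch1, the receptor that is also a target, lay at 1582, 1521 and 1582 at 10.5 dpc and 3293, 2884 and 3506 at 11.5 dpc and rose by 1.04 ± 0.073 (adjusted p = 8.1e-07). No array overlapped between the ages for the ligand or for these 2 targets. Hhip, another target, was near the lowest intensities and did not pass (-0.05 ± 0.034, adjusted p = 0.25). The signal transducer gene Smo rose by 0.16 ± 0.035. Gas1, a coreceptor, lay at 23607, 24651 and 22595 at 10.5 dpc and 10833, 11160.3 and 10814 at 11.5 dpc and fell by 1.11 ± 0.038 (adjusted p = 5.5e-09), and the repressor gene Gli3 fell by 0.41 ± 0.063. Shh, the ligand of neural tube and gut, was dim and fell by 2.06 ± 0.39, with arrays of 55.9, 35 and 54.5 at 10.5 dpc and 8.37, 19.9 and 6.97 at 11.5 dpc.

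In the Notch list 7 of 16 genes rose and 3 fell. The receptor gene Notch1 lay at 362, 334 and 300.1 at 10.5 dpc and 1630.2, 1733 and 1631 at 11.5 dpc and rose by 2.33 ± 0.066 (limma adjusted p = 1.6e-09), and the ligand gene Jag1 lay at 187, 169 and 183 at 10.5 dpc and 1157, 1173 and 1220.2 at 11.5 dpc and rose by 2.71 ± 0.049 (adjusted p = 1.4e-10). Notch2 rose by 1.60 ± 0.11. The target Heyl rose by 1.58 ± 0.14 (63.2 to 191), whereas the targets Hey1 and Hes1 fell by 0.51 ± 0.068 (589.7 to 413) and 0.31 ± 0.085 (356 to 285). These receptors and Jag1 rose, while the targets named went both ways.

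In the insulin and insulin-like growth factor list 8 of 14 genes rose and 3 fell. Probe sets of the growth factor gene Igf1 were called both ways, at 0.16 ± 0.054, -1.12 ± 0.049 and -0.32 ± 0.056. Those of its receptor gene Igf1r were also called both ways, at -0.88 ± 0.06 in the probe set used and 1.09 ± 0.076 in another. The receptor substrate gene Irs2 lay at 79.1, 67.7 and 73.8 at 10.5 dpc and 420.1, 387 and 439 at 11.5 dpc and rose by 2.48 ± 0.063 (limma adjusted p = 9.1e-10). The binding protein genes Igfbp2, Igfbp6 and Igfbp4, which hold growth factors outside the cell, rose by 1.91 ± 0.065 (157 to 589), 1.12 ± 0.20 (24.2 to 53.1) and 1.06 ± 0.034 (6337 to 13231), whereas Igfbp3 fell by 0.39 ± 0.06 (1099 to 840.4) and Igfbp5 did not pass (-0.03 ± 0.048, adjusted p = 0.67). In the retinoic acid list 4 of 14 genes rose and 3 fell. Aldh1a2, the main embryonic enzyme that makes retinoic acid, lay at 3771, 3534 and 3854 at 10.5 dpc and 752, 768 and 757 at 11.5 dpc and fell by 2.29 ± 0.064 (adjusted p = 1.5e-09). The related enzyme gene Aldh1a1 rose by 0.86 ± 0.05 from a high level (5182 to 9437), and Rdh10, which makes its substrate, by 1.68 ± 0.075 (101 to 328). The binding protein gene Crabp1 lay at 188, 191 and 169.5 at 10.5 dpc and 2470.1, 2425 and 2471 at 11.5 dpc and rose by 3.74 ± 0.042 (adjusted p = 7.4e-12), and the receptor gene Rarb, itself induced by retinoic acid, fell by 1.77 ± 0.1 (419 to 122). Synthesis, transport and response genes of this pathway therefore moved in both directions.

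Among 23 genes of vessel, nerve and guidance signals 10 rose and 9 fell, or 5 that fell without XY 11.5 dpc replicate 2. Pdgfa, the Sertoli cell signal to vessels and interstitium, lay at 387, 332 and 277 at 10.5 dpc and 1743, 1776 and 1736 at 11.5 dpc and rose by 2.41 ± 0.10 (limma adjusted p = 1.8e-08), and Pdgfb rose by 2.24 ± 0.095 (21.8 to 107). The chemokine gene Cxcl12 fell by 0.67 ± 0.038 (6033 to 3794). Of 20 genes of epithelial junctions and keratins 9 rose and 5 fell. The claudin genes Cldn6 and Cldn7 were dim and rose by 1.01 ± 0.12 (21.6 to 44.5) and 0.87 ± 0.11 (20.001 to 37.7), the cadherin genes Cdh11 and Cdh1 by 0.92 ± 0.066 (2218 to 4203) and 0.72 ± 0.096 (72.7 to 121), the laminin receptor gene Itga6 by 1.34 ± 0.053 (254 to 645) and the keratin gene Krt8 by 0.86 ± 0.048 (1889 to 3429). The falls included Cldn11 (-0.72), the junction scaffold gene Tjp1 (-0.54), the cadherin gene Cdh2 (-0.46) and the keratin gene Krt19 (-0.45).

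Positional and metabolic genes fell more often than they rose. Falls also outnumbered rises over all genes, at 29.9% against 23.7%. Of 33 Hox genes, the transcription factors that mark position along the body axis, 3 rose and 17 fell, 6 of the falls at least 2-fold. Their median was -0.16. Hoxd9 lay at 3845, 3707 and 3692 at 10.5 dpc and 1474, 1469.8 and 1472 at 11.5 dpc and fell by 1.35 ± 0.041 (limma adjusted p = 2.7e-09), Hoxd8 fell by 1.84 ± 0.046 (1665 to 466), Hoxa9 fell by 1.63 ± 0.052 (2679 to 862) and the dim Hoxd3 fell by 2.26 ± 0.31 (94.4 to 19.2). The other 2-fold falls were Hoxd10 (-1.29) and Hoxc4 (-1.27). The 3 rises were Hoxd13 (0.50 ± 0.06), which was near the lowest intensities at 10.5 dpc (8.42 to 12.3), Hoxb3 (0.49 ± 0.088) and Hoxb5 (0.44 ± 0.077). Of 18 genes of glycolysis and hypoxia 2 rose and 14 fell, 3 of the falls at least 2-fold, with a median of -0.42. Ankrd37, which is induced by low oxygen, lay at 1805, 1758 and 1801 at 10.5 dpc and 453, 445 and 416 at 11.5 dpc and fell by 2.03 ± 0.054 (adjusted p = 1.2e-09). Pdk1 and Bnip3, also hypoxia-induced, fell by 1.11 ± 0.052 (10826 to 5009) and 1.00 ± 0.051 (8049 to 4023). The glucose transporter gene Slc2a1 fell by 0.49 ± 0.03, the glycolytic enzyme genes Pgk1 and Ldha fell by 0.41 ± 0.05 and 0.31 ± 0.043, and the hexokinase gene Hk1 rose by 0.76 ± 0.059.

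Markers of other cell types moved with age in these sorted cells, and their part in the other results was not tested. Of 16 endothelial genes 9 rose and 0 fell, with a summed intensity between 916 and 1039 on the 10.5 dpc arrays and between 2014 and 2121 on the 11.5 dpc arrays. Erg, a transcription factor of vessels, lay at 83.4, 42.8 and 51.9 at 10.5 dpc and 309.9, 299.6 and 291 at 11.5 dpc and rose by 2.38 ± 0.19 (limma adjusted p = 2.5e-06), and the junction gene Cldn5 lay at 41, 20.4 and 46.7 at 10.5 dpc and 158, 186 and 179 at 11.5 dpc and rose by 2.32 ± 0.24 (adjusted p = 1.4e-05). Erg was called rising in 1 of its 2 probe sets, with a mean over them of 1.17. Icam2, Plvap and the vascular growth factor receptor gene Kdr rose by 1.58 ± 0.093 (38.5 to 117), 1.67 ± 0.091 (59.2 to 191) and 0.96 ± 0.091 (271 to 528). The defining endothelial genes Pecam1 (4.71, 4.85 and 4.89 at 10.5 dpc and 4.62, 4.66 and 4.64 at 11.5 dpc) and Cdh5 (7.12, 7.15 and 7.18 at 10.5 dpc and 6.9, 9.47 and 7.08 at 11.5 dpc) read near the lowest intensities at both ages. Of 11 erythroid genes 6 rose and 2 fell (1 without any 1 of 5 of the 6 arrays, all but XY 10.5 dpc replicate 1), and the list's sum went from between 6934 and 7159 to between 8692 and 9282. Without Tfrc, its brightest gene, the sum went from between 1229 and 1355 to between 6283 and 6658. The embryonic globin genes Hbb-y and Hba-x lay at 312, 269 and 284 at 10.5 dpc and 3532, 3783 and 3597 at 11.5 dpc and at 154, 135 and 137 at 10.5 dpc and 842, 894 and 852 at 11.5 dpc, rises of 3.66 ± 0.052 and 2.60 ± 0.065, and the haem enzyme gene Alas2 rose by 1.32 ± 0.20 (46 to 114). The transferrin receptor gene Tfrc, which all dividing cells use, fell by 1.23 ± 0.05 (5724 to 2438).

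Of 19 germ cell genes 6 rose and 5 fell, and the sum lay between 4737 and 4896 on the 10.5 dpc arrays and between 7998 and 8456 on the 11.5 dpc arrays. Most of that sum was the membrane protein gene Ifitm1, which rose by 1.19 ± 0.039 (2428 to 5527), and without it the sum went from between 2337 and 2392 to between 2606 and 2709. The germ cell RNA-binding gene Dazl rose by 1.98 ± 0.13 with arrays of 24.9, 22.1 and 28.5 at 10.5 dpc and 87.1, 108 and 111 at 11.5 dpc, Utf1 by 2.21 ± 0.19 (20.3 to 96.4) and its relative Ifitm3 by 1.30 ± 0.063 (275 to 679). The pluripotency genes Zfp42 and Sox2 fell by 1.42 ± 0.14 (45.1 to 16) and 1.08 ± 0.072 (204 to 95.7). Pou5f1 (44.1, 33.7 and 47.2 at 10.5 dpc and 33.8, 37.2 and 38 at 11.5 dpc) overlapped between the ages (limma adjusted p = 0.24), although it was called falling (-0.32, adjusted p = 0.022) without XY 10.5 dpc replicate 2. Of 12 neural and neural crest genes 0 rose (1 without XY 10.5 dpc replicate 2) and 7 fell, and the sum went from between 998 and 1160.3 to between 332 and 401, or without Neurod1 from between 567 and 678 to between 322 and 391. The neuronal genes Elavl4 and Tubb3 fell by 1.62 ± 0.17 (89.8 to 28.6) and 1.12 ± 0.12 (87.1 to 39.2) and Zic1 fell by 1.92 ± 0.40, with arrays of 48.8, 31.9 and 12.2 at 10.5 dpc and 8.35, 5.11 and 5.998 at 11.5 dpc.

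Of 10 genes that mark coelomic epithelium and mesothelium 1 rose and 7 fell, with a sum of 9131 to 9429 at 10.5 dpc and 7818 to 8371 at 11.5 dpc. Without Efemp1, its brightest gene, the sum went from between 8695 and 8911 to between 2821 and 2843. Besides Bnc1 and Aldh1a2, the surface protein genes Lrrn4 and Upk3b fell by 1.94 ± 0.14 (379.9 to 98.9) and 1.18 ± 0.064 (761 to 337). The matrix gene Efemp1 was the 1 that rose, with arrays of 518, 436 and 515 at 10.5 dpc and 5546, 4997 and 5204 at 11.5 dpc, by 3.42 ± 0.072 (limma adjusted p = 3.4e-10), and mesothelin (Msln), which marks mature mesothelium, was dim on all 6 arrays, from 12.4 to 14.3. Of 15 macrophage genes 1 rose and 4 fell, and the sum went from between 619 and 654 to between 492 and 515. Adgre1, Lyz2, Mrc1 and Cd14 fell by 0.64 ± 0.079 (185 to 118), 0.81 ± 0.15 (92.7 to 52.9), 0.71 ± 0.18 (70.7 to 43.3) and 1.33 ± 0.23 (34.9 to 13.7), and Csf1r rose by 0.36 ± 0.081 (108 to 139). C1qa and Ptprc were near the lowest intensities.

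Of 11 genes of nephric duct and tubule epithelium 2 rose and 2 fell, or 1 that fell without XY 10.5 dpc replicate 1 or without XY 11.5 dpc replicate 3. The sum went from between 1096 and 1161 to between 827 and 888, most of it Calb1, and without that gene from between 227 and 247 to between 270.4 and 293. Cdh16 rose by 0.57 ± 0.092 (69.1 to 102), the calcium-binding protein gene Calb1 fell by 0.63 ± 0.058 (892 to 576), and Ret, the receptor for Gdnf, fell by 0.49 ± 0.14 (38.8 to 27.6). The call for Ret was lost without XY 10.5 dpc replicate 1 (limma adjusted p = 0.06) or XY 11.5 dpc replicate 3 (adjusted p = 0.055). Pax8 read near the lowest intensities (8.76, 8.94 and 9.01 at 10.5 dpc and 8.41, 8.52 and 8.68 at 11.5 dpc). Of 12 genes of skeletal muscle and somite 1 rose and 2 fell (2 rose without XY 10.5 dpc replicate 1), and the sum went from between 1028 and 1192 to between 1255 and 1348, or without Tnnt1 from between 648 and 816 to between 709.9 and 728. Tnnt1 rose by 0.69 ± 0.074 (357 to 575), Mylpf fell by 0.65 ± 0.13 (148 to 94.8), Myf5 fell by 0.49 ± 0.074 (13.4 to 9.23) and Myod1 was near the lowest intensities. Of 5 Y-linked genes 0 rose and 2 fell, Kdm5d by 0.88 ± 0.12 (406 to 222) and Eif2s3y by 0.55 ± 0.14 (2347 to 1606). The mean over the probe sets of Eif2s3y was -0.29 (adjusted p = 0.12). Xist, the RNA that silences an X chromosome in XX cells, was dim and fell by 1.28 ± 0.27 (27.6 to 11.5).

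Much of the XY change was shared with the XX arrays of the same ages. Of the 1082 genes that rose at least 2-fold in XY, 623 also rose at least 2-fold in XX, which is 57.6% of the XY list and 57.1% of the 1091 in XX (6% of all genes). Of the 943 that fell at least 2-fold in XY, 654 fell that far in XX, which is 69.4% of the XY list and 49.0% of the 1334 in XX (7.33% of all genes). The difference of the 2 age changes was tested in the same fit. It was higher in XY for 18.8% and lower for 15% of all genes. Among the 1082 XY rises it was higher in XY for 516 and lower for 149, and among the 943 XY falls it was lower in XY for 312 and higher for 199. These genes were picked by their XY change, which is part of the difference. An excess in that direction is therefore partly set by the choice.

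Excesses in XY were ranked among genes with no overlap of the XY ages and a mean of at least 100 at the brighter age. The largest were those of Hcrtr1, Afp, Cst9 and Mapk13. The dimmer Zic1, which fell in both sexes, had a difference of 4.54, above the 4.13 of Mapk13. Hcrtr1 (1436295_at), an orexin receptor, lay at 4.74, 4.81 and 4.87 at 10.5 dpc and 264, 239 and 252 at 11.5 dpc in XY, a rise of 5.44 ± 0.10 against 0.38 ± 0.10 in XX, a difference of 5.06 ± 0.14 (limma adjusted p = 4.9e-08). Afp rose by 8.39 in XY and by 3.42 ± 0.23 in XX, and Mapk13 by 6.004 and 1.88 ± 0.30. Of the 25 testis genes the change was higher in XY for 15 and lower for 4, with Fgf9 at 3.72 against 0.68 ± 0.072, Sox9 at 1.26 against -0.08 ± 0.12 and Tesc at 6.84 against 3.999 ± 0.16. Of the 19 ovary genes it was lower in XY for 12 and higher for 3, with Wnt4 at 1.37 against 3.03 ± 0.05 and Runx1 at 3.88 against 4.39 ± 0.086. In the ranking of differences from XX, Sprr2d had the largest deficit, 1.66 against 5.33 ± 0.13. Morn1 fell by 1.25 ± 0.085 in XY (152 to 63.2) and changed by 1.89 ± 0.085 in XX, and Eif2s3y fell in XY while its signal in XX rose by 2.63 ± 0.14 to a mean of 64.7, far under the XY level.

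Of the 18 genital ridge factors the change was lower in XY for 10 and higher for 3. Among the 10 were Emx2 at -3.00 in XY against -1.66 ± 0.039 in XX, Lhx9 at -1.46 against -0.31 ± 0.028, Kdm3a at -1.19 against 0.01 ± 0.042, and Gata4, which did not pass in XY, at 0.05 against 0.83 ± 0.041. The cell cycle genes went the other way: for 25 of 28 the change was higher in XY, and for 0 it was lower. Bub1 stood at -1.78 in XY against -3.60 ± 0.065 in XX, Ccnd1 at 1.75 against 0.02 ± 0.071, and the fall of Mki67 was -0.65 against -1.05 ± 0.038. Endothelial genes had a higher change in XY for 11 of 16 and lower for 0, and neural genes for 7 of 12 and lower for 0. Germ cell genes had it for 12 of 19 and lower for 1. In that order, the medians of the XX change were -0.08, -2.22 and -1.19. The sexes also differed at 10.5 dpc. Mean intensity of Erg went from 271 to 311 in XX and from 59.4 to 300 in XY, and that of Cldn5 from 222 to 245 and from 36 to 174. Bub1 went from 2958 to 243 in XX and from 1161 to 339 in XY, and Ccnd1 from 422 to 428 and from 147 to 496. The part of the 10.5 dpc level in these differences was not tested.

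**Figure D4:**
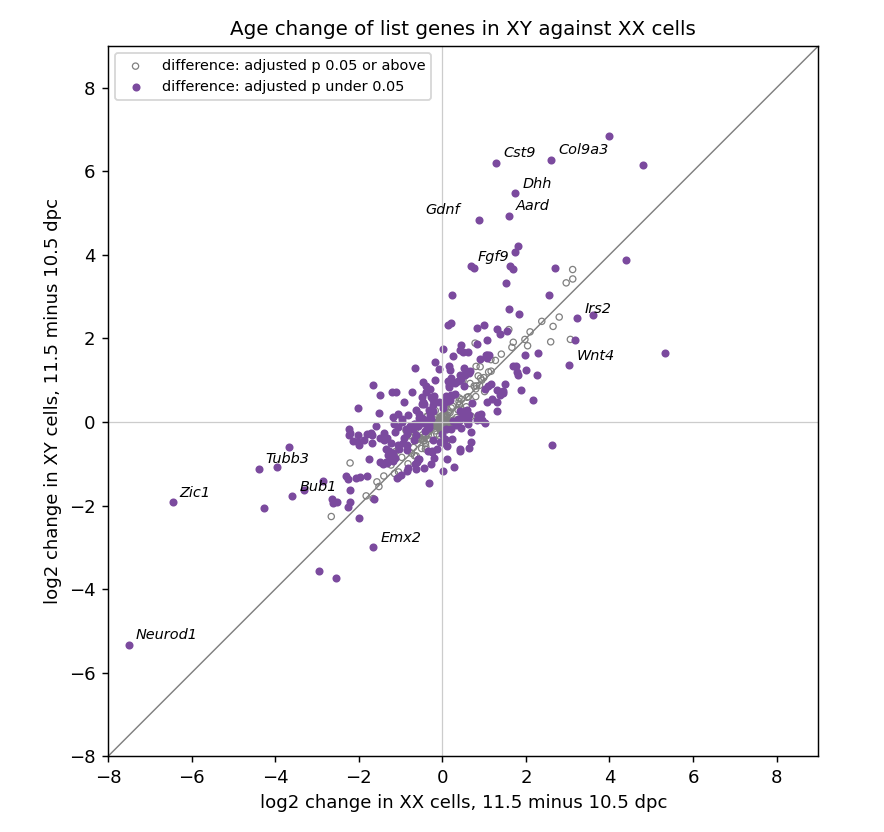
Change in XY cells (vertical) against change in XX cells (horizontal), 11.5 minus 10.5 dpc on the log2 scale, 1 point per list gene, with the line of equal change. Filled points have a limma adjusted p under 0.05 for the difference. Cst9, Dhh, Gdnf, Fgf9 and Col9a3 stand far above the line, and Wnt4, Irs2 and Emx2 stand under it.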

How the data were processed

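The authors measured RNA of sorted cells on 12 Affymetrix arrays and deposited 1 intensity per probe set and array. The intensities were made with RMA, which corrects background, normalizes quantiles and summarises probes, per the submitters' processing notes; the notes name no version and not how a linear scale was reached. Quantile normalization hides a change shared by most transcripts, and RMA pulls dim probe sets together, so folds of dim genes are understated.

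The 64 control probe sets were left out and 45037 tested as log2(value + 1). Models with 1 mean per sex and age were fitted to all 12 arrays with limma 3.58.1 in R 4.3.3, with 8 residual and 1.89 prior degrees of freedom and Benjamini-Hochberg adjustment over all probe sets at 0.05. On data simulated with independent noise of each probe set's array-to-array spread, the fit recovered 97% of 2-fold and 100% of 4-fold changes. Only 100 probe sets were changed by each size. These shares rest on the noise assumed and say nothing of spread between embryos. A gene was read from its brightest probe set over the 12 arrays that names it alone, with cross-hybridising (_x_at) probe sets used as a last resort. Of the probe sets 34945 had 1 symbol, 932 several and 9160 none, and 34741 were matched to the RefSeq table of GRCm38.p6, which also gave the promoter windows.

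The 30 lists hold 525 genes, of which 479 were measured. Lists and members were chosen with earlier results of these data known. Genes named are the 10 largest rises and falls whose arrays did not overlap and whose brighter age reached a mean of 100, the members of the ridge, testis, ovary and steroid lists changed at least 2-fold, the 4 largest called changes of each other list, known central members, and the 4 largest differences from XX in each direction. These differences were ranked among genes that met the same rules on overlap and brightness. Same-numbered arrays of the 2 ages did not deviate together (r = -0.013, 0.014 and 0.0069), so the numbers do not pair them. Alternatives were log2(value + 16), XY arrays only, median centring, repeated quantile normalization, a filter on dim probe sets, a trended robust variance, the replicate block, the mean over a gene's probe sets, and leaving out each XY array.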

Additional observations from a re-analysis of the deposited data

Results flagged for a closer look

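The XY age change of 28 named genes differed from the XX age change by at least 2 on the log2 scale, by the test of the difference itself (limma adjusted p under 0.05). Among 24 of them the XY change was the higher one. Many named genes were chosen by the size of their XY change, which is part of this difference. The differences were 5.06 for the orexin receptor gene Hcrtr1, 4.97 for Afp, 4.91 for Cst9, 4.13 for Mapk13, 3.96 for Gdnf, 3.73 for Dhh, 3.68 for Col9a3, 3.36 for Aard, 3.05 for Fgf9, 2.93 for Lgr5, 2.84 for Tesc, 2.81 for Etv5, 2.44 for Adamts16, 2.40 for Ptgds, 2.33 for Col18a1 and 2.12 for Crabp1, all of which rose in XY. The endothelial genes Erg and Cldn5 stood at 2.18 each and the junction gene Cldn7 at 2.54. At 10.5 dpc Erg, Cldn5 and Cldn7 had means of 271, 222 and 108 in XX against 59.4, 36 and 20 in XY. The part of that in the difference was not tested.

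For 5 further genes both sexes fell and XX fell more. The difference was 4.54 for Zic1, 3.28 for Tubb3, 2.53 for Ppp1r17, 2.22 for Shh and 2.17 for Neurod1, all known from neural tissue. The XX arrays at 10.5 dpc were brighter than the XY arrays of that age for these genes, and the part of that in the difference was not tested. In the other 4 genes the XY change was the lower one, by -3.67 for Sprr2d, -3.18 for Eif2s3y, -3.14 for Morn1 and -3.13 for Gbp2b.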

How the results depend on the processing

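No called gene given with values changed direction under any alternative run. Of the 135 genes named by the size of their change, all kept their call with log2(value + 16), XY arrays only, median centring, repeated quantile normalization, a trended robust variance or the replicate block, as did the 116 that passed a mean intensity of 100. Of all 281 genes given with values, the calls of Eif2s3y, Lss and Nr5a1 were lost with the mean over probe sets, and Uty was called falling (-0.35). Amh, Amhr2, Pax8, Pecam1 and Hhip were called falling with median centring (-0.07, -0.10, -0.10, -0.09 and -0.10), and Ptprc with XY arrays only (-0.33). Mcm3 lost its call with repeated quantile normalization (limma adjusted p = 0.067) and with the intensity filter (adjusted p = 0.053). Leaving out 1 array moved the calls of Mcm3, Ret, Fgf7 and Pou5f1, as given above. Counts of falls depended on the scaling and the filter: 11939 probe sets fell, or 22038 with arrays centred on their medians and 7624 among those with a mean intensity of at least 100, and 5433 genes fell, or 8847 with centring. Of the 60 list counts 8 moved by over 1.5 times with centring, all of them falls: the FGF list went from 2 to 7, cell cycle inhibitors from 2 to 5, muscle from 2 to 6, nephric duct from 2 to 5, macrophages from 4 to 7, retinoic acid from 3 to 5, the testis list from 1 to 2 and endothelium from 0 to 1. The intensity filter, which tests fewer genes, lowered 15: the falls of Hox genes from 17 to 11, neural genes from 7 to 3, the ovary list and germ cells from 5 to 3 each, macrophages from 4 to 1, adrenal cortex from 4 to 2, steroid, erythroid, nephric and muscle genes from 2 to 1 each, FGF from 2 to 0 and testis from 1 to 0, and the rises of steroid genes from 5 to 3 and of nephric and adrenal genes from 2 to 1 each. The falls of the erythroid list were also 1 with log2(value + 16), XY arrays only, repeated quantile normalization or the block, and 1 neural gene rose with the trended robust variance. An alternative chosen after seeing the data left the brightest gene out of each marker list's summed intensity: the log2 ratio of 11.5 to 10.5 dpc turned from 0.41 to -1.08 for adrenal cortex (Cited2), from -0.39 to 0.26 for nephric duct (Calb1) and from 0.24 to -0.046 for muscle (Tnnt1), and moved from 0.34 to 2.30 for erythroid cells and from -0.21 to -1.64 for the coelomic list. Leaving out each XY array in turn gave 9495 to 12791 probe sets falling and 8470 to 8710 rising, 4632 to 5647 genes falling and 4038 to 4173 rising, 926 to 982 genes falling and 1070 to 1103 rising at least 2-fold, and 3154 to 3305 genes with a higher and 2455 to 2644 with a lower change in XY than in XX. With the replicate number as a block 4257 genes rose and 5164 fell; the numbers do not pair the arrays, and of the genes given with values the block moved the call of 1, Mcm3 (limma adjusted p = 0.063). RMA intensities near the lowest values carry no information on level, and 3 arrays per age limit the precision.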

Other observations

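Further genes, nearly all outside the lists above, changed in the XY cells; they were chosen after their values were seen, so they are given as values with no count as support. Clock genes went both ways: Per2 lay at 11.6, 5.14 and 9.37 at 10.5 dpc and 304, 271 and 333 at 11.5 dpc and rose by 5.03 ± 0.22 (limma adjusted p = 2.2e-08), in 2 of its 3 probe sets, Per1 rose by 1.26 ± 0.06 and Cry2 by 1.56 ± 0.13, while Cry1 fell by 0.42 ± 0.05 and Per3 overlapped between the ages (adjusted p = 0.35). Of the fibulins, glycoproteins of elastic fibres, Fbln2 lay at 62.2, 47.4 and 54.8 at 10.5 dpc and 1641, 1512 and 1474 at 11.5 dpc and rose by 4.797 ± 0.088, Fbln5 lay at 64.6, 47 and 73.6 at 10.5 dpc and 1288, 1296 and 1394 at 11.5 dpc and rose by 4.43 ± 0.20, Fbln7 rose by 1.10 ± 0.10, and Fbln1, a member of the matrix list, rose by 1.11 ± 0.052. Elastin itself (Eln) rose by 3.70 ± 0.19 and the mineral-binding matrix protein gene Mgp by 4.30 ± 0.12 with arrays of 54.2, 66.4 and 63.7 at 10.5 dpc and 1224, 1222 and 1221 at 11.5 dpc. Other matrix genes that rose were Col27a1 (3.50 ± 0.10), Col14a1 (3.87 ± 0.19), Col6a3 (2.95 ± 0.15), Col6a2 (2.86 ± 0.14), Col8a1 (2.48 ± 0.13), Bgn (3.08 ± 0.057) and Smoc2 (3.72 ± 0.18). Fbln2, Fbln5 and Eln were each called in 1 of 2 probe sets, with means over them of 2.37, 2.37 and 1.81. Fbln1 was called in 1 of 3, with a mean of 0.39, and Col14a1 and Col8a1 in 2 of 3, with means of 1.51 and 1.92. The glutathione transferase genes Gstm6, Gstm2 and Gstm1 rose by 4.93 ± 0.14, 3.11 ± 0.052 and 2.97 ± 0.049; these genes are close relatives, and probe sets may read more than 1 of them.

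Interferon-linked genes went both ways. Beside Gbp2b, Gbp2 fell by 2.99 ± 0.14 with arrays of 323, 331 and 311 at 10.5 dpc and 40.2, 49.5 and 31.1 at 11.5 dpc, Gbp3 by 0.78 ± 0.14 and Gbp7 by 0.59 ± 0.079, whereas Ifi35 rose by 4.40 ± 0.13 with arrays of 28.4, 31.5 and 44 at 10.5 dpc and 725, 760.1 and 725 at 11.5 dpc, Bst2 by 3.17 ± 0.16, Irf1 by 1.79 ± 0.053 and Ifi27 by 1.53 ± 0.14. Of the nuclear factor I family, Nfib and Nfia rose by 1.56 ± 0.054 and 0.44 ± 0.05 beside Nfix, and Nfic rose by 0.54 ± 0.093 with 1 of its 5 probe sets falling. Immediate early genes were split, with Egr3 rising by 4.24 ± 0.17, Egr2 by 1.24 ± 0.075, Egr1 by 0.51 ± 0.069, Nr4a1 by 1.59 ± 0.056 and Nr4a2 by 1.99 ± 0.057, and Fos falling by 0.44 ± 0.04. Egr3 was called rising in 1 of its 2 probe sets, with a mean over them of 2.11. Other genes with large rises were the solute carrier gene Slc26a7 (5.36 ± 0.13), the membrane protein gene Tmem184a (5.35 ± 0.14), Gatm of creatine synthesis (5.24 ± 0.09), the kinase gene Map3k21 (4.87 ± 0.18), the lymphatic growth factor gene Vegfd (4.75 ± 0.15), the angiotensin receptor gene Agtr2 (3.54 ± 0.18), the potassium channel gene Kcnj8 (3.12 ± 0.15) and the water channel gene Aqp5 (2.99 ± 0.14). Falls outside the lists included the oncogene Mycn (-2.21), the midbody gene Cep55 (-2.03), the centrosome gene Cep72 (-2.01) and the cilium genes Bbs2 (-1.99) and Bbs5 (-2.06).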
